A study of Saccharomyces cerevisiae with 5 samples.

Results

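The 54 genes described here encode proteins of the budding yeast cell wall and the enzymes that build and remodel it, and they were chosen by name for that function. Of these, 53 were among the 5535 genes measured on 4 of the study's arrays, and all 54 were among the 5579 genes of the remaining array, where GAS1 had its only named spot. Each of the study's 5 arrays, which form 1 group, carried RNA pulled down with zz-tagged Yra1 in channel 1 and RNA pulled down with zz-tagged Mex67 in channel 2, both from Saccharomyces cerevisiae. Mex67 is the main export receptor for yeast mRNA and Yra1 an RNA-binding adaptor that works with it in the nucleus, so the arrays address which transcripts differ in their association with the 2 proteins. No strain, culture condition or untagged control is named in the labels used here. Replicate 1 was on a platform of its own, and replicates 2 to 5 shared another and were tested together.

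The yeast wall is a mesh of beta-glucan with a little chitin, covered by a layer of mannoproteins. Most of these mannoproteins are tethered through the remnant of a glycosylphosphatidylinositol (GPI) anchor, and the PIR proteins are joined directly to glucan. Synthases at the plasma membrane extrude glucan and chitin, and secreted elongases, glucanases, crosslinking enzymes and proteases reshape the mesh as the cell grows and divides. Nearly all of the products enter the secretory pathway, so their mRNAs are translated at the endoplasmic reticulum after export.

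Values are log2 ratios relative to the median of each array. The labels and tables used here do not state which precipitate was the numerator of the deposited ratio, so "below" and "above" refer to that ratio and name no precipitate. The deposited medians, before centring, ran from -2.81 to 1.96 log2 units over the arrays. Replicate 2 was at 1.96, replicate 1 at 0.32, and replicates 3 to 5 were all below 0. Across the other genes, Pearson r between pairs of the 5 arrays ran from -0.065 to 0.13, too near 0 to show that the arrays run the same way. Replicate 2 had r of 0.076, -0.035 and -0.0027 with replicates 3, 4 and 5. Among replicates 3 to 5, r was 0.074 (3 and 4), 0.027 (3 and 5) and 0.13 (4 and 5). Whether replicate 2 runs the other way was not tested. The sign of replicate 2, the only tested array with a deposited median above 0, was also turned. The means of many genes, though not of all, are given both ways. Replicate 1 was not turned. On the platform of replicates 2 to 5, neighbouring spots near the edge of a print block often held identical values. At least 1 of the 4 arrays held such a value for 20 of the 53 wall genes (37.7%) and for 49.5% of the other genes. The labels do not tie the arrays to separate cultures, so p-values here measure the spread from array to array, which may be technical. YRA1 was at 0.23 ± 0.88 and MEX67 at -0.23 ± 0.78 (SD, n = 4), both within that spread.

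No wall gene passed limma's test over all genes after Benjamini-Hochberg adjustment, where the share called was 0.0% of 5535 genes and the smallest adjusted p was 0.836. The lowest mean belonged to PLB3, a phospholipase B gene, at -1.78 ± 0.64 (SD, n = 4), a 3.44-fold difference. Next was SED1, a major GPI wall protein gene, at -1.05 ± 0.73, a 2.07-fold difference. Both were below the median on all 5 arrays. These 2 genes were the only wall genes at an unadjusted p under 0.05, both below 0, against 3.99% of all genes below 0 and 1.43% above 0 at that threshold. SED1 was no longer among them with the median of surrounding spots removed, with replicates 3 and 5 averaged, without replicate 2, 3 or 5, or with the sign of replicate 2 turned. PLB3 was no longer among them with replicate 2 turned, but was under each of the other settings run. The 2 of 53 wall genes below 0 are 3.77% of the list, a share near that of all genes.

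The means of the wall genes spanned both sides of 0. The median of their means was -0.085, against -0.015 for the other 5482 genes, with 30 wall genes below 0 and 23 above. It was 0.078 with the median of surrounding spots removed and 0.017 with replicate 2 turned. Means ran from -1.78 to 1.40, and the middle of the list, from the lower to the upper quartile, ran from -0.42 to 0.25, against -0.39 to 0.27 for the other genes. The median SD of a wall gene over the 4 arrays was 0.81 log2 units, against 0.77 for the other genes. For 9 wall genes (17.0%) the mean was farther from 0 than 1 SD, against 14.9% of the other genes. On single arrays the median of the wall genes minus that of the other genes was 0.079, -0.069, 0.016, 0.0996 and -0.26 log2 units on replicates 1 to 5.

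**Figure D1:**
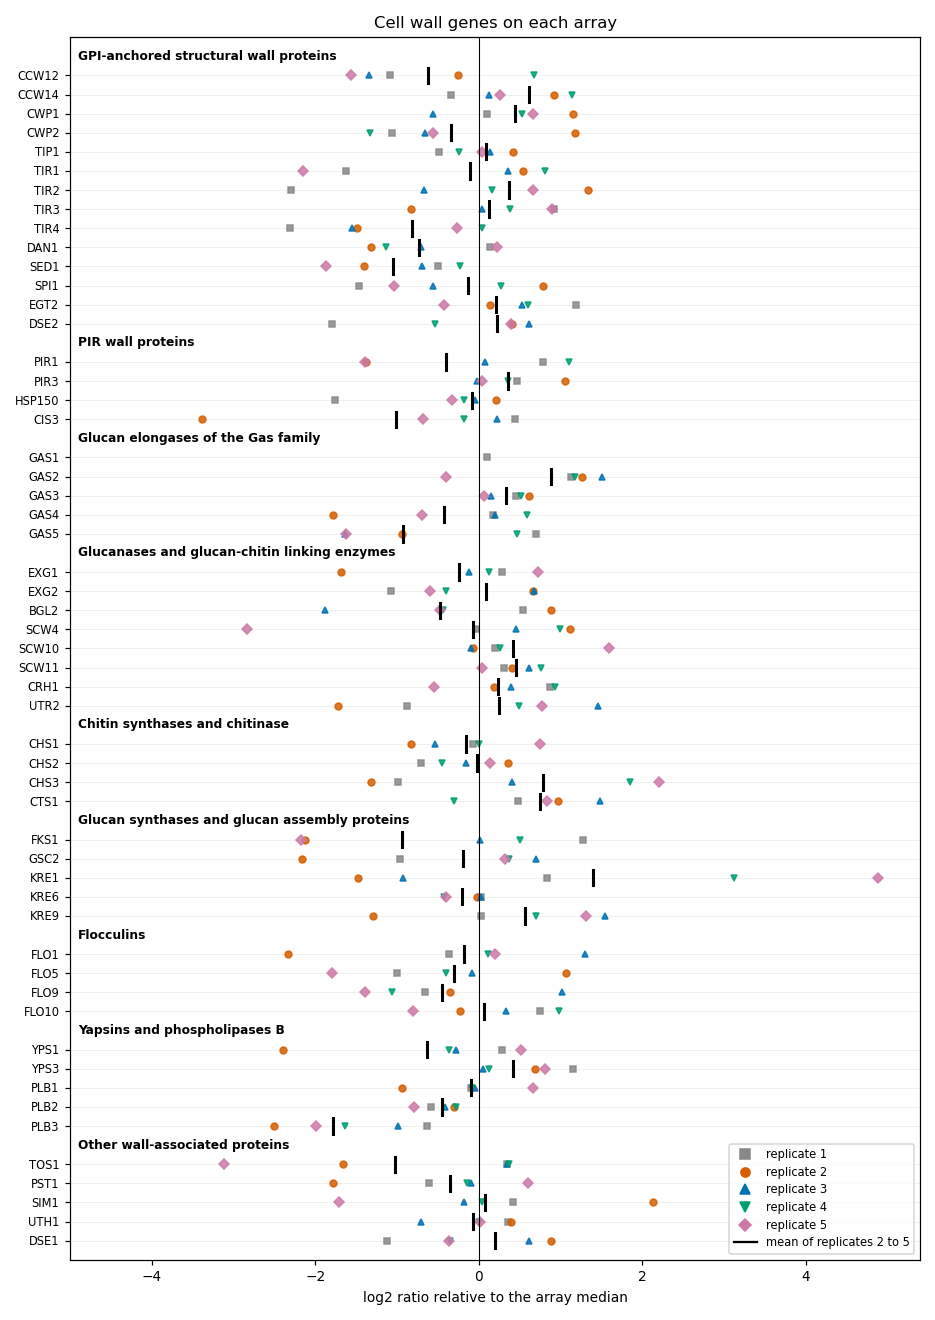
Log2 ratio relative to the array median (horizontal axis) for each of the 54 cell wall genes (rows, grouped by role); symbols are the 5 arrays and the black bar is the mean of replicates 2 to 5. PLB3 and SED1 lie below 0 on all 5 arrays, and KRE1 runs from -1.48 to 4.88.

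The genes with 1 sign throughout were few. Below the median on all 4 arrays of the shared platform were 3 wall genes, PLB3, SED1 and PLB2, which are 5.66% of the list, against 7.14% of all genes. Above it on all 4 were CCW14, GAS3, SCW11 and YPS3, which are 7.55%, against 7.12%. Replicate 1 had the same sign for 6 of these 7 genes. That leaves 3 wall genes below 0 on all 5 arrays, where 3.32% of all genes were, and 3 above 0 on all 5, where 3.29% of all genes were. With replicate 2 turned, other genes had 1 sign: CWP2, HSP150, BGL2 and FLO5 were below 0 on all 4 arrays (7.55%, against 6.43% of all genes), and TIR3, UTR2, CHS3, GSC2, KRE9 and FLO1 above it (11.3%, against 7.19%). On all 5 arrays CWP2, HSP150 and FLO5 were then below 0, where 3.38% of all genes were, and TIR3 and KRE9 above it, where 2.75% were. GAS3, SCW11 and YPS3 then had means of 0.031, 0.25 and 0.077. With the median of surrounding spots removed instead, these genes were at 0.10, 0.22 and 0.078, and PLB2 was at -0.082. Signs here are those of a gene's averaged spots. On replicate 3 a spot of GAS3 was at -0.044 and a spot of YPS3 at -0.040, and on replicate 5 a spot of SCW11 was at -0.039. On replicate 1, 20 of the 53 wall genes (37.7%) had the opposite sign to their mean over the other 4 arrays, against 51.1% of the other genes.

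The GPI-anchored structural proteins, which form the outer mannoprotein layer, were evenly divided, with 7 of 14 genes below 0 and a median of means of -0.011. SED1, which encodes the main structural protein of walls in stationary cells, was at -1.40, -0.70, -0.23 and -1.87 on replicates 2 to 5 and at -0.50 on replicate 1. All 5 values were below 0, and its 2 spots on each of replicates 2 to 5 differed by 0.32, 0.028, 0.31 and 0.27 log2 units, less than the arrays differed from one another. The 95% confidence interval of its mean from limma was -1.95 to -0.15 before adjustment over genes, and adjusted p was 0.836.

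The TIR genes encode serine-rich mannoproteins made in the cold and without oxygen, and TIR1 to TIR4 resemble one another, so their spots may bind each other's cDNA. TIR4 was at -1.49, -1.55, 0.038 and -0.26 on replicates 2 to 5, and at -2.31 on replicate 1. It was thus below 0 on 4 of the 5 arrays, with a mean of -0.81 ± 0.82 (SD, n = 4), but at -0.056 once the median of the surrounding spots was removed and at -0.070 with replicate 2 turned. TIR2, the chromosomal neighbour of TIR4, was at 1.33, -0.67, 0.16 and 0.66, and at -2.30 on replicate 1. TIR1 was at 0.54, 0.36, 0.81 and -2.15, and at -1.62 on replicate 1. TIR3, at -0.83, 0.037, 0.38 and 0.89 and at 0.92 on replicate 1, was the only TIR gene above 0 there. No array therefore placed the 4 genes on 1 side of 0 except replicate 4, where all lay between 0.038 and 0.81. DAN1, another mannoprotein gene of anaerobic cells, had a mean of -0.74 ± 0.69, or -0.075 with replicate 2 turned, and its 2 spots on replicate 4 were at 1.79 and -4.07.

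Among the remaining GPI protein genes, CCW12, which encodes one of the most abundant wall proteins, was at -0.62 ± 1.04 (SD, n = 4), with -1.09 on replicate 1. CCW14, which encodes an inner-layer wall protein, was at 0.61 ± 0.49 and above 0 on all 4 arrays, with -0.34 on replicate 1. It was at 0.15 with replicate 2 turned. On 3 of the 4 arrays a spot of CCW14 had the same value as a neighbouring spot. CWP1 and CWP2 are chromosomal neighbours that encode mannoproteins, CWP1 of the birth scar and CWP2 a major wall component, and they were at 0.44 ± 0.72 and -0.34 ± 1.07. With the median of surrounding spots removed they were at 0.00 ± 0.52 and 1.02 ± 2.24, and with replicate 2 turned at -0.13 and -0.93. The 1.02 of CWP2 rests on replicate 5, where its surrounding spots were at -4.42 and CWP2 at -0.57. On replicates 2 to 4 those spots lay between -0.52 and -0.19. TIP1, SPI1, EGT2 and DSE2 had means between -0.14 and 0.22.

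The 4 PIR genes encode proteins with internal repeats through which they are bound to glucan. PIR1 was at -1.38, 0.081, 1.11 and -1.396 on replicates 2 to 5, with 0.79 on replicate 1, and its chromosomal neighbour PIR3 was at 1.06, -0.020, 0.36 and 0.038, with 0.47 on replicate 1. HSP150, also called PIR2, was at 0.22, -0.050, -0.18 and -0.32, with -1.76 on replicate 1. Its SD of 0.23 was the smallest of the 53 genes, although replicate 1 lay far from the other arrays. CIS3, also called PIR4 and adjacent to HSP150, was at -3.39, 0.22, -0.18 and -0.68, with 0.44 on replicate 1. Its mean of -1.01 ± 1.63 (SD, n = 4) was set by replicate 2: it was -0.22 without that array and 0.69 with its sign turned. The 4 genes lay within 0.27 log2 units of one another on replicate 3 and 4.44 apart on replicate 2.

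**Figure D2:**
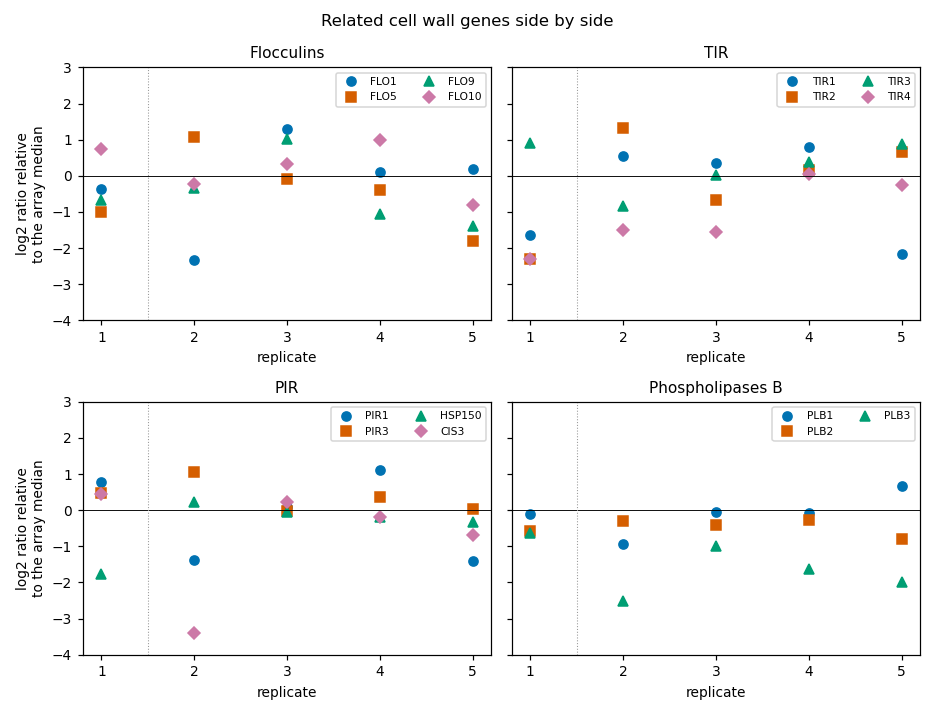
Log2 ratio relative to the array median (vertical axis) by array (horizontal axis) for the flocculin, TIR, PIR and phospholipase B genes; the dotted line separates replicate 1, on the other platform. The flocculin, TIR and PIR genes spread over both sides of 0 on most arrays, while the 3 phospholipase B genes are all below 0 on replicates 1 to 4, with PLB3 the lowest on all 5.

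The Gas family enzymes elongate beta-1,3-glucan chains, and 2 of their 4 genes on the shared platform were below 0. GAS2, a gene of spore wall assembly, was at 1.27, 1.50, 1.18 and -0.40 on replicates 2 to 5 and at 1.13 on replicate 1. Its mean of 0.89 ± 0.87 (SD, n = 4) was 0.14 ± 0.15 with the median of surrounding spots removed, with those spots at 1.21, 1.35, 0.84 and -0.396, and 0.25 with replicate 2 turned. GAS5 was at -0.94, -1.64, 0.47 and -1.62, with 0.695 on replicate 1 and a mean of -0.93 ± 0.99. Its surrounding spots lay between -0.396 and 0.398, and its mean was -0.88 with their median removed and -0.46 with replicate 2 turned. GAS3 was above 0 on all 5 arrays at 0.34 ± 0.27, GAS4 was at -0.42 ± 1.05 but at 0.47 with replicate 2 turned, and GAS1, whose product is the main elongase of growing cells, was at 0.10 on replicate 1.

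Glucanases and glucan-chitin linking enzymes had a median of means of 0.16, with 3 of 8 genes below 0. SCW11, a glucanase-like gene expressed in daughter cells, was above 0 on all 5 arrays at 0.46 ± 0.31 (SD, n = 4), and at 0.22 with the median of surrounding spots removed. BGL2, which encodes an abundant glucan transferase, was at -0.48 ± 1.13, or -0.92 with replicate 2 turned. SCW4, related to BGL2, was at 1.11, 0.46 and 0.99 on replicates 2 to 4 but at -2.83 on replicate 5, where SCW10 was at 1.59. The mean of SCW4 was -0.069 ± 1.86, or -0.62 with replicate 2 turned. The crosslinkers CRH1 and UTR2, which join chitin to glucan, were at 0.24 ± 0.61 and 0.25 ± 1.37, and the exoglucanase genes EXG1 and EXG2 at -0.24 ± 1.02 and 0.084 ± 0.68. UTR2 was at 1.11, EXG1 at 0.60 and EXG2 at -0.25 with replicate 2 turned.

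Chitin synthase genes had no common direction. CHS3, which encodes the synthase of most wall chitin, was at -1.31, 0.41, 1.85 and 2.20 on replicates 2 to 5 and at -0.98 on replicate 1. Its mean was 0.79 ± 1.60 (SD, n = 4), or 1.49 without replicate 2 and 1.44 with its sign turned. CHS2, whose enzyme forms the primary septum, was at -0.027 ± 0.35 and CHS1, a repair synthase gene, at -0.15 ± 0.695, or 0.26 with replicate 2 turned. CTS1, the chitinase gene needed for cell separation, was above 0 on 4 of the 5 arrays, at 0.75 ± 0.75 with 0.49 on replicate 1, and at 0.26 with replicate 2 turned.

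The glucan synthesis group had the widest range of means. FKS1, the main catalytic subunit gene of beta-1,3-glucan synthase, was at -2.13, 0.011, 0.51 and -2.17 on replicates 2 to 5 and at 1.27 on replicate 1, the highest wall gene on that array. Its mean of -0.94 ± 1.41 (SD, n = 4) was thus set by replicates 2 and 5, and it was 0.12 with replicate 2 turned. The spots around FKS1 were at -2.88 on replicate 2 and 0.31 on replicate 5, and with the local median removed it was at -0.69 ± 1.38. GSC2, which encodes the alternative subunit of the same enzyme, was also at -2.17 on replicate 2, but at 0.33 on replicate 5 and -0.96 on replicate 1, and its mean was -0.19, or 0.89 with replicate 2 turned. KRE1, a gene of beta-1,6-glucan assembly, was at -1.48, -0.93, 3.12 and 4.88, with 0.84 on replicate 1. Its mean of 1.40 was the highest of the list, and its SD of 3.10 was the widest of the list and rank 39 among all 5535 genes. The spots around KRE1 lay at -1.44, -1.71, 1.96 and 1.93, with the same sign as KRE1 on each array, and with their median removed it was at 1.21 ± 1.26. On replicates 2 and 4 a spot of KRE1 had the same value as a neighbouring spot. KRE1 was at 2.14 with replicate 2 turned. KRE9, which also acts in beta-1,6-glucan assembly, was at -1.30 on replicate 2 and between 0.70 and 1.54 on replicates 3 to 5. Its mean was 0.56 ± 1.29, or 1.21 with replicate 2 turned. The spots around KRE9 were at -2.68 on replicate 2, and with the local median removed it was at 0.68 ± 0.57. KRE6, a putative beta-1,6-glucan synthase gene, was at -0.20 ± 0.24.

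**Figure D3:**
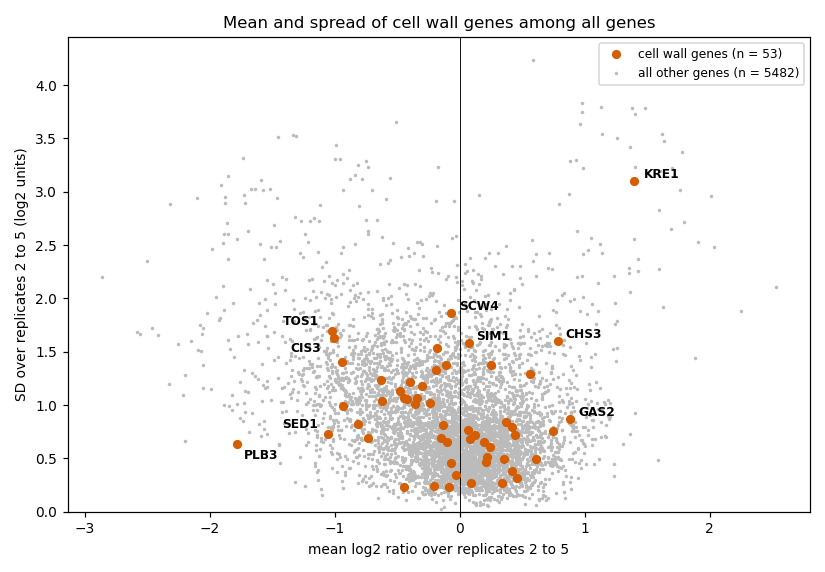
Mean log2 ratio (horizontal axis) and SD over replicates 2 to 5 (vertical axis, log2 units) for the 53 cell wall genes (orange) and the other 5482 genes (grey). PLB3 lies at -1.78 with an SD of 0.64, and KRE1 at 1.40 with an SD of 3.10. Other genes lie beyond both: PLB3 ranked 47 from the lowest mean and KRE1 39 from the highest SD of all genes.

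Flocculins are lectin-like wall proteins that bind mannan on other cells, and FLO1, FLO5 and FLO9 are highly similar genes near chromosome ends. FLO1 was at -2.33, 1.30, 0.11 and 0.19 on replicates 2 to 5 and at -0.36 on replicate 1. FLO5 was at 1.07, -0.086, -0.40 and -1.80, with -0.998 on replicate 1, and was on the other side of 0 from FLO1 on each of replicates 2 to 5. FLO9 was at -0.35, 1.01, -1.06 and -1.39, with -0.66 on replicate 1. FLO10, a more distant relative, was at -0.24, 0.33, 0.98 and -0.81, with 0.74 on replicate 1. FLO1 minus FLO5 was -3.40 on replicate 2 and between 0.51 and 1.99 on replicates 3 to 5, although similar genes may bind the same cDNA. The spots around FLO1 were at -2.44 on replicate 2 and those around FLO5 at 0.76, and with the local medians removed the 2 genes had means of 0.13 and -0.55. As deposited, the mean of FLO5 was -0.30, and it was -0.84 with replicate 2 turned.

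Phospholipase B enzymes are GPI-linked or secreted and cleave acyl chains from phospholipids, and PLB3 was the lowest of the 3 genes on every array as deposited. PLB3 was at -2.51, -0.99, -1.64 and -1.99 on replicates 2 to 5 and at -0.63 on replicate 1. Its 2 spots had the same sign on each of replicates 2 to 5, none of their values was shared with neighbouring spots, and the surrounding spots were at -1.76, 0.13, 0.32 and -0.057. With their median removed PLB3 was at -1.44 ± 0.61 (SD, n = 4). The 95% confidence interval of its mean from limma was -2.65 to -0.92 before adjustment, it ranked 47 from the lowest of 5535 means, and its adjusted p was 0.836. PLB1, at -0.94, -0.042, -0.084 and 0.67, lay above PLB3 on each array, by 1.68 ± 0.71 log2 units (n = 4). PLB2, at -0.31, -0.42, -0.28 and -0.79, lay above it by 1.34 ± 0.67. On replicate 1 these differences were 0.53 and 0.050. PLB3 was the highest of the 3 on replicate 2 with that array turned, and the mean differences were 0.90 ± 1.79 and 0.23 ± 1.66, within their spread. PLB3 was picked out after its values were seen, so these differences are given without a test.

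The yapsins are GPI-anchored aspartic proteases that process wall proteins. YPS1 was at -0.63 ± 1.24 (SD, n = 4), a mean set by -2.39 on replicate 2 that was 0.56 with that array turned, and its chromosomal neighbour YPS3 was above 0 on all 5 arrays at 0.42 ± 0.38. Of the other wall-associated genes, TOS1, which encodes a covalently bound wall protein, was at -1.66, 0.34, 0.36 and -3.12 on replicates 2 to 5 and at 0.34 on replicate 1. It was below 0 on 2 arrays and above it on 3, and its mean of -1.02 was -0.19 with replicate 2 turned. SIM1 and UTH1, of the SUN family, were at 0.072 ± 1.58 and -0.070 ± 0.46, with the spread of SIM1 set by 2.14 on replicate 2 and -1.70 on replicate 5. On replicates 2, 4 and 5 a spot of SIM1 had the same value as a neighbouring spot. The spots around SIM1 were at 1.87 on replicate 2 and -1.35 on replicate 5, and with the local median removed it was at -0.17 ± 0.39. SIM1 was at -0.996 with replicate 2 turned. PST1, a GPI protein gene induced by wall damage, was at -0.36 ± 1.01, or 0.53 with replicate 2 turned, and DSE1, a daughter-specific gene of cell separation, at 0.19 ± 0.65.

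The 2 spots of a wall gene lay closer together on replicates 2 to 5 than on replicate 1. On replicates 2 to 5 these spots are side by side, and for some genes both held an identical value. Small gaps there are thus not free of print position. The 2 spots of a wall gene differed by a median of 0.20, 0.17, 0.26 and 0.24 log2 units on replicates 2 to 5, against 0.26, 0.24, 0.33 and 0.18 for the other genes. On replicate 1 the 15 wall genes with more than 1 spot differed by a median of 1.10, against 0.77 for the other genes, and the 2 CWP2 spots were at 1.10 and -3.22. Across the 53 genes, Pearson r between arrays ran from -0.098 to 0.35. The highest value, between replicates 4 and 5, was 0.090 without KRE1, and Spearman's rho for that pair was 0.069. Wall gene values followed the median of surrounding spots of other genes, with r of 0.61, 0.53, 0.56 and 0.49 on replicates 2 to 5, against 0.79, 0.64, 0.60 and 0.74 for the other genes. These correlations are across genes of 1 array or pair of arrays, which share print position and hybridisation and are not independent replicates.

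**Figure D4:**
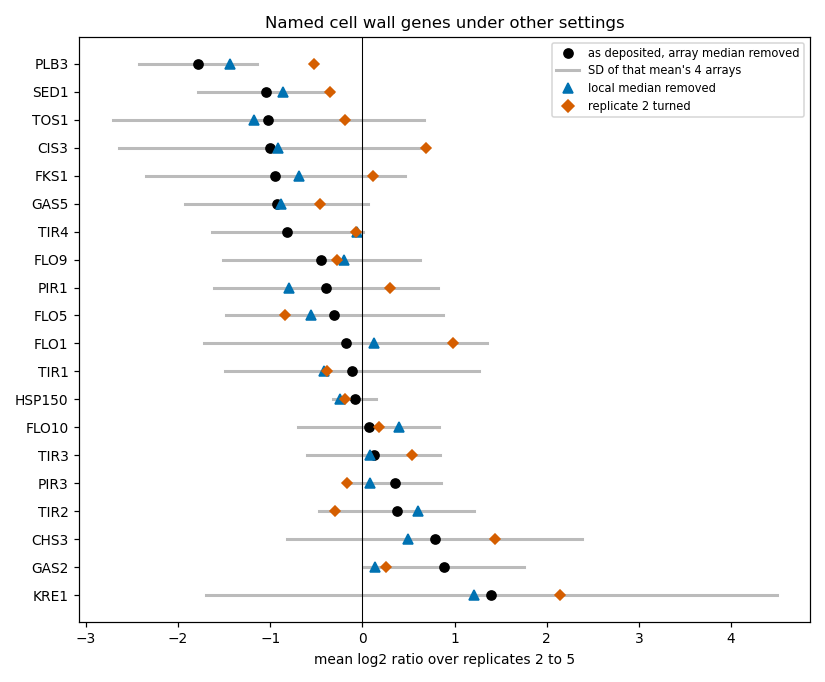
Mean log2 ratio over replicates 2 to 5 (horizontal axis) for 20 named cell wall genes (rows) as deposited after centring (black, with the SD of the 4 arrays as a grey bar), with the local median removed (blue) and with the sign of replicate 2 turned (orange). PLB3 and SED1 stay below 0 in all 3 settings, while CIS3 and FKS1 are above 0 with replicate 2 turned.

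The settings moved individual genes. With the median of surrounding spots removed, 11 of the 53 wall genes (20.8%) changed the sign of their mean, against 26.2% of the other genes. Turning the sign of replicate 2 changed it for 18 wall genes (34.0%), against 42.3% of the other genes. With replicate 2 turned, PLB3 went from -1.78 to -0.53 and SED1 from -1.05 to -0.35. Both stayed below 0 but shrank, and neither was then at an unadjusted p under 0.05 in limma.

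Genes that act on the wall from inside the cell were taken from lists of 4 pathways. Of the cell wall integrity signalling genes, which relay wall stress to a MAP kinase, 14 of 21 were below 0, with a median of means of -0.17, but of 0.11 with replicate 2 turned. TUS1, an exchange factor gene for Rho1, was below 0 on all 5 arrays at -1.30 ± 0.94 (SD, n = 4), and at 0.042 with replicate 2 turned, while ROM2, another such gene, was at 0.39 ± 0.395. Helpers of glucan and chitin synthesis had 10 of 22 genes below 0 and a median of 0.065, and their extremes were the chitin deacetylase gene CDA2 at -0.89 ± 0.64 and the chitin synthase activator gene SKT5 at 0.59 ± 0.33. Genes of mannosylation had 12 of 27 below 0 and a median of 0.11, with the mannosyltransferase genes MNN2 at -0.84 ± 0.81 and KTR7 at 0.99 ± 0.63. GPI anchor synthesis and attachment had 14 of 28 below 0 and a median of 0.010, with GPI11 at -0.899 ± 0.95 and GAB1 at 0.65 ± 0.45. On replicate 1 CDA2 was at 0.72, SKT5 at -0.20, MNN2 at 0.21, KTR7 at -0.79 and GPI11 at 0.68, each opposite in sign to its mean. ROM2, at 1.055, and GAB1, at 0.45, had the sign of their means there. On 3 of the 4 arrays a spot of KTR7 had the same value as a neighbouring spot. With replicate 2 turned CDA2 was at -0.088, SKT5 at 0.30, KTR7 at 0.60, GPI11 at -0.013 and GAB1 at 0.071. With the median of surrounding spots removed CDA2 was at -0.20, SKT5 at 0.22, KTR7 at 0.50 and GPI11 at -0.21, and the medians of the signalling, synthesis helper and GPI lists were -0.0047, -0.013 and -0.0024. At an unadjusted p under 0.05 in limma these lists held TUS1, 1 of 21 genes, and CDA2, 1 of 22, below 0. KTR7, 1 of 27, was above 0 at that threshold. Over all genes the shares were 3.99% below 0 and 1.43% above. With at most 1 gene in a list, these counts do not set the lists apart from all genes. No gene of the 4 lists passed limma's test after adjustment over all genes.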

How the data were processed

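Members and lists were chosen by function with earlier results of these data known. Per spot, the authors deposited 1 value that was read here as a log10 ratio: taken as a base 10 logarithm, 1.65 to 18.45% of 2000 spots drawn per array gave a quotient of whole numbers no larger than 3000, against at most 0.65% with base 2 or e. The scanner, dyes and background correction, and any normalization, are not stated in the labels or tables, so signal over background is unknown and the number of arrays limits the precision. After conversion to log2, each array was centred on its median and the spots of a gene were averaged. Spots were named through the platform annotation and the RefSeq gene table of assembly R64 (5535 and 5579 genes, all matched). Spots without a gene were left out (1662 of 12800 and 985 of 7680), as was 1 row with no numeric ID, and 2 repeated IDs were merged. Coordinates are left out, as no build is named.

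Each gene's 4 log2 ratios were tested against 0 with limma 3.58.1 in R 4.3.3 (lmFit and eBayes, two-sided, values on at least 3 arrays), with Benjamini-Hochberg adjustment over all 5535 genes and a threshold of 0.05. The fit was also run on simulated data, with genes shuffled within each array and known changes added. Such data hold no effect of print position and no link between arrays, so that run does not bear on either. The local median was taken over spots of other genes within 2 rows and columns in the same print block. Genes given in full were those at an unadjusted p under 0.05, the 10 largest means, those of 1 sign on all 5 arrays with a mean beyond 0.5, and the flocculin, TIR and PIR families. From each related list the gene of smallest p on each side was named. Others named were chosen after their values were seen. The titles of replicates 3 and 5 carry 1 shared code whose meaning is not given. Summaries used Python 3.11.15. Other settings are given in the closing section.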

Additional observations from a re-analysis of the deposited data

Results flagged for a closer look

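TIR1 was at -2.15 on replicate 5 and between 0.36 and 0.81 on replicates 2 to 4, a gap of 0.847 of the whole range of its 4 arrays, which is above Dixon's 95% critical value for 4 samples. On replicate 1, on the other platform, TIR1 was at -1.62. This was the only such case among 30 genes examined, and chance gives about 5% of groups. Those 30 were named genes and did not include every wall gene. Left out, for example, were GSC2, at -2.17 on replicate 2 and between 0.33 and 0.70 on replicates 3 to 5, and SCW4. SCW4 was at -2.83 on replicate 5 and between 0.46 and 1.11 on replicates 2 to 4. TIR1 is thus not the only wall gene with 1 array far from the others.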

How the results depend on the processing

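No wall gene passed the adjusted threshold in limma under any alternative run. The count at an unadjusted p under 0.05 was 2 as reported, 4 with the local median removed, 4 with replicate 1 added, 6 with the sign of replicate 2 turned, and from 1 to 5 with 1 array left out. Among all 5535 genes, 53 of them wall genes, that count was 300 as reported and 260 once local medians were taken off. It was 284 when replicate 1 joined the fit and 310 when replicate 2 changed sign. Dropping single arrays gave from 230 to 340. Whether the wall gene counts differ from these was not tested. With replicate 2 turned the 6 wall genes were KRE9, CHS3, UTR2, CWP2, KRE1 and BGL2, and neither PLB3 nor SED1 was among them. The median of the wall genes' means ran from -0.10 to -0.0060 with 1 array left out. Of 277 values of the 20 named genes under alternatives, 260 kept their sign. Some of these could not change it. Taking the median over spots, or requiring a value on all 4 arrays, left each named gene's mean as reported. Leaving out shared values did the same for genes without such values. The count is therefore no measure of stability. With replicate 2 turned, CIS3 was at 0.69, FKS1 at 0.12, FLO1 at 0.98, PIR1 at 0.29, PIR3 at -0.17 and TIR2 at -0.30. FLO1 was also at 0.29 with array weights, 0.039 with arrays scaled to equal spread and 0.13 with the local median removed. TIR1 was at 0.15 with replicates 3 and 5 averaged, and TIR2 at -0.16 with replicate 1 added. With 1 array left out, FLO1 ran from -0.68 to 0.53, FLO10 from -0.24 to 0.36, FLO5 from -0.76 to 0.19, TIR1 from -0.42 to 0.57 and TIR3 from -0.14 to 0.44, while PLB3 ran from -2.05 to -1.54 and SED1 from -1.32 to -0.78. The cause of these changes was not tested. Leaving out values identical to those of any neighbouring spot, including a gene's own second spot, was chosen after seeing the data. The shared title code as a random block was not run, since 3 codes over 4 arrays are too few to estimate its correlation. No paired analysis was possible because the arrays form 1 group and the replicate numbers only name them.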

Other observations

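Wall genes that are neighbours on a chromosome make up 5 pairs, HSP150 with CIS3, PIR1 with PIR3, CWP2 with CWP1, YPS1 with YPS3 and TIR4 with TIR2. Over replicates 2 to 5 the genes of a pair were on the same side of 0 in 8 of 20 cases. The mean differences, first minus second gene, were 0.92 ± 1.80, -0.75 ± 1.45, -0.78 ± 0.91, -1.05 ± 1.35 and -1.18 ± 1.15 log2 units (SD, n = 4), so only the last exceeded its spread between arrays. With replicate 2 turned, the differences were -0.88 ± 1.83, 0.46 ± 1.60, -0.80 ± 0.89, 0.49 ± 1.73 and 0.23 ± 1.77, each within its spread, and 4 of the 5 changed sign. TIR4 lay below TIR2 on each of these 4 arrays as deposited, by 2.82 on replicate 2, and by 0.020 on replicate 1.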
